A study of Mus musculus with 80 samples.

Results

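H3K27me3 was followed in mouse embryonic stem cells whose MLL2 protein carries a substitution that removes its enzyme activity, here called catalytic-dead (CD) cells, and in their wild type (WT). The members are all the peaks of 2 deposited H3K27me3 lists, 20776 peaks in V6.5 WT cells and 20428 in CD cells. Together they make up 41204 of the 1015984 regions in the 40 peak and window lists used from the series. Each peak was placed in 1 of 2 classes, with or without H3K4me3, by whether it overlapped a V6.5 WT H3K4me3 peak by at least 1 bp.

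The series holds 80 samples of Mll2 wild type and mutant cells. The V6.5 background is a mouse embryonic stem cell strain. The CD line carries the Y2602A allele of Mll2, and the labels do not say whether it is 1 clone. Both V6.5 lines were grown with serum and LIF on irradiated embryonic fibroblasts, and 2 rounds of pre-plating removed these feeder cells before chromatin was prepared. How many feeder cells remained was not tested, since peak lists hold no expression values. A second line served for comparison: a conditional Mll2 line from C57Bl/6 blastocysts, with floxed Mll2 and an inducible Cre, grown without feeders. Its WT cells received the carrier and its knockout (KO) cells received 4-hydroxytamoxifen for 96 h, so deletion and drug came together.

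MLL2 is a histone methyltransferase of the COMPASS family that places H3K4me3 at promoters. H3K27me3 is placed by Polycomb repressive complex 2 (PRC2), of which Suz12 is a core subunit, and it can be bound by forms of Polycomb repressive complex 1, of which Ring1b is the ubiquitin ligase. Promoters that carry both marks are called bivalent, and in embryonic stem cells many belong to developmental genes that are poised at low activity. Catalytic-dead MLL2 separates the methyltransferase activity from the presence of the protein, and the H3K27me3 libraries show where the Polycomb mark lay when that activity was missing.

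Each mark and genotype in V6.5 cells had 1 library, so no difference between WT and CD has a replicate check and no p-value is given. Intervals beside shares are exact Clopper-Pearson 95% intervals, which cover counting error over peaks only, and neighbouring peaks are not independent. The read depth behind the lists is unknown, and a peak missing from 1 list may lie just under the threshold of the authors' peak caller. The lowest score in both H3K27me3 lists was 50. Coordinates are on mouse build mm9. No annotation of that build was used here, so peaks are not assigned to genes, exons or introns.

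The 2 H3K27me3 lists were close in size and extent. Peaks covered 53.9 Mb in WT and 52.4 Mb in CD, and 36.9 Mb was covered in both. Median peak width was 1628 bp in WT and 1555 bp in CD, and the median score was 131 and 133. The H3K4me3 lists of the same lines differed far more, with 41008 peaks in WT and 25891 in CD. Of the WT H3K4me3 peaks, 17151 (41.8%) overlapped no CD H3K4me3 peak.

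H3K27me3 peaks with H3K4me3 were fewer in CD cells and those without it were more numerous. The number with H3K4me3 was 10054 in WT, 48.4% of the list, and 8610 in CD, 42.1% of the list. The number without H3K4me3 was 10722 in WT and 11818 in CD. Chromosome 8 supplied most of the second difference: without that chromosome, the numbers were 10076 and 10320. The first difference did not depend on it, at 9503 and 8091.

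The 2 lists met at about 3 of every 5 peaks. A CD peak overlapped 63.3% of WT peaks (62.6 to 63.9), and the other 7628 (36.7%) had none. A WT peak overlapped 63.6% of CD peaks (62.9 to 64.3), and the other 7435 (36.4%) had none. By bases, CD peaks covered 68.4% of the WT territory and WT peaks covered 70.4% of the CD territory.

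The overlap differed between the classes. Among WT peaks with H3K4me3, 74.3% (73.4 to 75.1) overlapped a CD peak and 2586 did not. Among WT peaks without it, 53.0% (52.0 to 53.9) did and 5042 did not. In the opposite direction, 84.5% of CD peaks with H3K4me3 (83.7 to 85.3) overlapped a WT peak and 1335 were found in CD alone. Of CD peaks without H3K4me3, 48.4% (47.5 to 49.3) overlapped a WT peak and 6100 were found in CD alone. Where H3K4me3 lay in WT cells, H3K27me3 peaks missing from CD thus outnumbered those found in CD alone, 2586 to 1335.

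**Figure D1:**
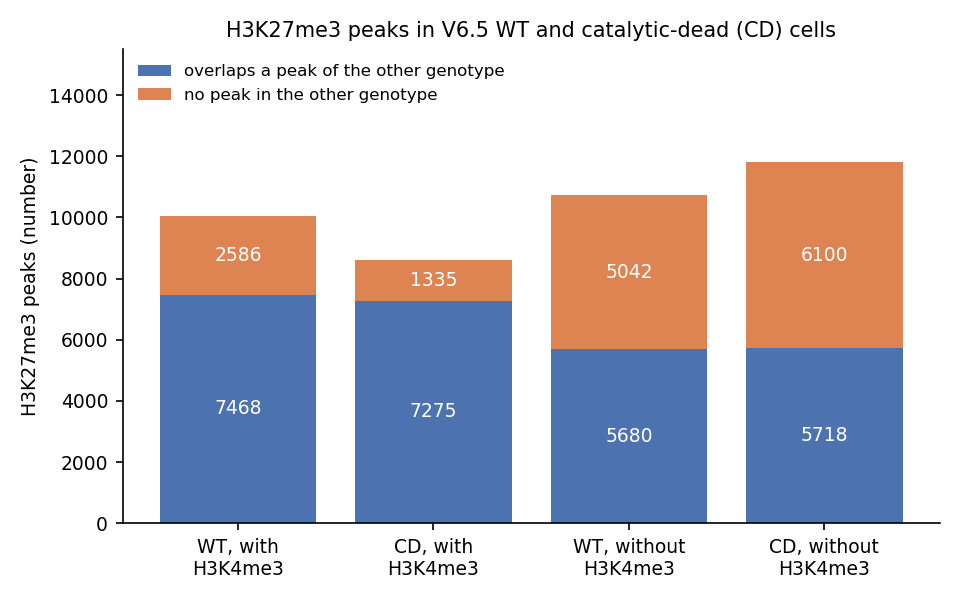
Number of H3K27me3 peaks (vertical axis) in V6.5 WT and CD cells, split by overlap with V6.5 WT H3K4me3, with the part that overlaps a peak of the other genotype in blue and the part that does not in orange. With H3K4me3, 2586 WT peaks and 1335 CD peaks have no counterpart, and without H3K4me3 the numbers are 5042 and 6100.

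Peaks without a counterpart were narrow and low in score. WT peaks with H3K4me3 that overlapped a CD peak had a median width of 3504 bp and a median score of 509, against 1605 bp and 118 for those missing from CD. CD-only peaks with H3K4me3 resembled the latter, with 1592 bp and 107. Without H3K4me3, WT-only peaks had a median of 1039 bp and a score of 74.7, and CD-only peaks 1038 bp and 77.4. Of the 461 WT peaks of at least 10000 bp, 456 (98.9%) overlapped a CD peak. Of the 487 CD peaks of that width, 482 overlapped a WT peak. Where broad WT domains were kept, 43.9% of them met at least 2 CD peaks, and 48.3% of the broad CD domains met at least 2 WT peaks.

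The overlap rose with score in both classes. The WT list was divided by score into 5 bins of equal size. From the lowest to the highest bin, the share of WT peaks with H3K4me3 that overlapped a CD peak was 40.0, 46.0, 57.5, 75.8 and 95.8%. For WT peaks without H3K4me3 the shares were 33.6, 45.3, 62.6, 85.5 and 97.4%. In bins 3, 4 and 5, WT peaks without H3K4me3 were therefore the better kept, the opposite order to the whole list. In bin 5 the intervals overlapped. In CD peaks the order was that of the whole list in the first 4 bins, at 51.2, 58.9, 72.7 and 86.0% with H3K4me3 against 27.5, 38.8, 56.8 and 80.8% without it. Both shares were 98.9% in the highest bin. In 5 bins by width, the shares of WT peaks were 30.4, 41.9, 58.1, 75.8 and 95.9% with H3K4me3. Without it they were 34.7, 50.3, 62.8, 81.4 and 94.8%, higher in the first 4 bins, with overlapping intervals in bins 1 and 5. CD peaks with H3K4me3 had the higher share in each of the 5 width bins.

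Within the WT peaks that carried H3K4me3, H3K27me3 was kept far more often where H3K4me3 was also kept. Of the 10054 peaks, 6893 overlapped a CD H3K4me3 peak and 3161 did not. H3K27me3 was still called in CD at 88.8% (88.0 to 89.5) of the first group and at 42.6% (40.8 to 44.3) of the second. Over all WT peaks the share was 63.3%. The gap was present in each of the 5 score bins. Where H3K4me3 was kept, the shares from the lowest to the highest bin were 61.9, 69.2, 78.4, 89.0 and 98.1%. Where it was absent, they were 18.2, 22.5, 32.6, 52.6 and 80.5%. It was present in each of 5 bins by width too, at 55.6, 63.6, 78.2, 87.9 and 98.1% against 17.3, 22.9, 32.5, 51.6 and 80.9%. Without chromosome 8 the overall values were 88.6 and 42.0%.

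**Figure D2:**
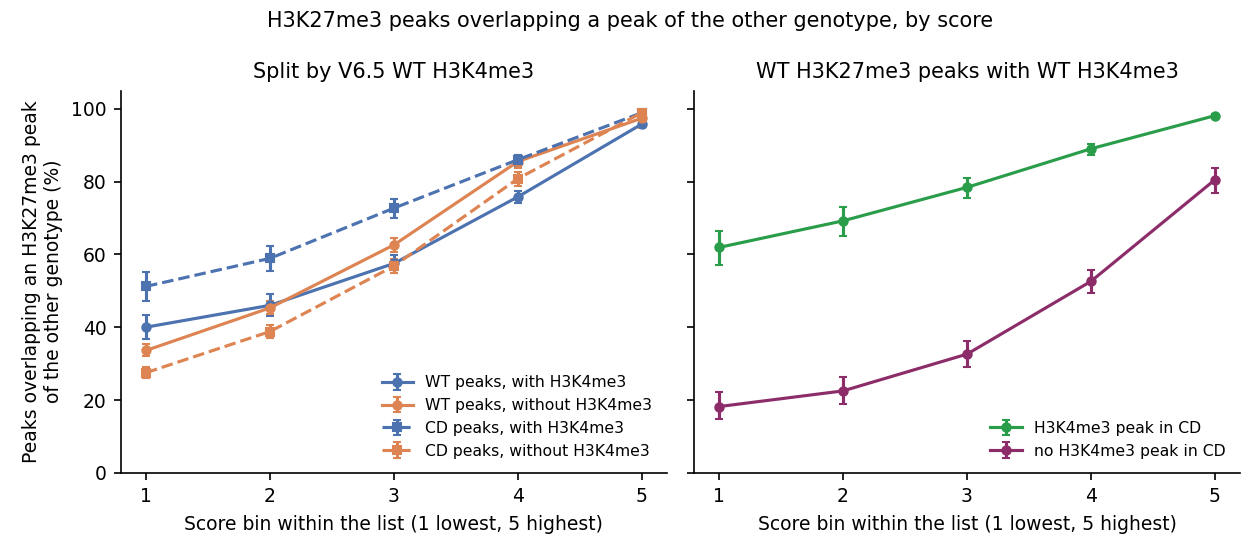
Share of H3K27me3 peaks (vertical axis, percent) that overlap an H3K27me3 peak of the other genotype, in 5 bins of score within each list (horizontal axis), with exact 95% intervals from counting. On the left, WT and CD peaks split by WT H3K4me3 rise to between 95.8 and 98.9% in the highest bin, and on the right, WT peaks with H3K4me3 lie higher in each bin where CD cells also have an H3K4me3 peak (88.8% over all bins) than where they have none (42.6%).

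The widths of kept peaks moved the same way. Over pairs in which 1 WT peak met 1 CD peak, the median log2 ratio of CD to WT width was -0.01 where H3K4me3 was kept, from 4185 pairs. Where H3K4me3 was absent in CD it was -0.34, from 945 pairs, and the median width was 2494 bp in WT and 1687 bp in CD. Only 27.6% of these pairs were wider in CD, against 48.9% where H3K4me3 was kept. Pairs with H3K4me3 kept had a larger median WT width, 3575 bp, and the 2 groups were not matched by score or width.

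Peaks found only in CD lay mostly where H3K4me3 was kept, as CD peaks on WT H3K4me3 did in general. Of the 1335 CD-only peaks that lay on WT H3K4me3, 83.1% (81.0 to 85.1) also overlapped a CD H3K4me3 peak, near the 81.6% (80.7 to 82.4) of all 8610 such CD peaks. In the WT list that share was 29.8% (28.1 to 31.6) for the 2586 peaks found only in WT and 82.0% (81.1 to 82.8) for the 7468 shared peaks. It was 68.6% over all 10054 WT peaks with H3K4me3. Read from the CD list, 84.2% of CD peaks with H3K4me3 kept and 85.8% of those with H3K4me3 absent overlapped a WT H3K27me3 peak, but at equal score the groups lay apart. From the lowest to the highest score bin, the shares were 41.0, 49.2, 66.3, 83.5 and 98.9% where H3K4me3 was kept and 66.9, 76.7, 86.7, 95.5 and 98.6% where it was absent. In bins 1 to 4, CD peaks on kept H3K4me3 were thus more often without a WT counterpart.

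The same marks were counted from the 41008 WT H3K4me3 peaks. H3K27me3 was present at 10240 (25.0%) of them in WT and at 8799 (21.5%) in CD. These 10240 peaks are called bivalent here by overlap of the WT lists alone, whether or not they lie at promoters. Of them, 74.2% overlapped an H3K27me3 peak in CD, 88.8% where H3K4me3 was kept and 45.5% where it was absent. In the first 4 of 5 bins by H3K4me3 score, these shares were 78.3, 72.4, 77.7 and 89.9% against 46.3, 46.2, 45.2 and 35.3%, and the highest bin held 1 peak with H3K4me3 absent. The other 30768 WT H3K4me3 peaks had no WT H3K27me3, and 1196 of them (3.89%) had an H3K27me3 peak in CD. This share was 5.71% (5.37 to 6.07) where H3K4me3 was kept and 1.62% (1.41 to 1.84) where it was absent. That contrast depended on H3K4me3 score. In the lowest bin by H3K4me3 score the order was the opposite, 0.742% (0.299 to 1.52) where it was kept and 1.55% (1.26 to 1.89) where it was absent, and in bin 2 the values were 1.75 and 1.42% with overlapping intervals. In bins 3 and 4 they were 3.24 against 2.21% and 6.93 against 1.70%, the last from 3 of 176 peaks. The lowest 2 bins held 6259 and 4923 of the 13712 peaks with H3K4me3 absent.

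MLL2 itself was mapped only in the conditional line, and whether the catalytic-dead protein occupies the same places was not measured. Of the WT H3K27me3 peaks with H3K4me3, 4287 overlapped an MLL2 peak of conditional WT cells, and 91.3% (90.5 to 92.2) of these had H3K27me3 in CD. Of the 5767 without MLL2, 61.6% (60.3 to 62.8) did. From the lowest to the highest score bin, the shares were 73.0, 76.6, 83.2, 88.5 and 97.3% with MLL2 and 30.2, 35.9, 46.9, 68.2 and 93.3% without it. By H3K4me3 score the gap was smaller in bins 3, 4 and 5, and the order was the opposite in bins 1 and 2. Over the bivalent H3K4me3 peaks in 5 such bins, the shares were 44.4, 34.9, 64.8, 91.2 and 95.4% with MLL2 and 48.3, 50.6, 61.2, 82.6 and 92.5% without it. Bins 1 and 2 held only 18 and 43 bivalent peaks with MLL2. The peaks were also split by MLL2 and by the fate of H3K4me3 together. With MLL2, H3K27me3 was kept at 94.4% of the peaks that kept H3K4me3 and at 35.0% (28.7 to 41.7) of the 220 that did not. Without MLL2, the values were 80.8 and 43.1%. CD-only H3K27me3 also favoured MLL2 sites: 9.82% of H3K4me3 peaks that had MLL2 but no WT H3K27me3 had an H3K27me3 peak in CD, against 2.31% of those without MLL2. In bins 3, 4 and 5 by H3K4me3 score these shares were 7.03, 10.9 and 9.77% with MLL2 and 2.64, 4.09 and 4.67% without it. In bins 1 and 2, 1 peak each with MLL2 had an H3K27me3 peak in CD, too few to compare.

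Other lists from conditional WT cells told the 3 classes of H3K27me3 region with H3K4me3 apart. MLL2 peaks overlapped 52.4% of shared regions, 14.3% of WT-only regions and 50.6% of CD-only regions. RNA polymerase II phosphorylated on serine 5, the form found early in transcription, overlapped 67.8, 17.9 and 60.0%, and RPB1, the largest polymerase subunit, overlapped 28.6, 11.2 and 54.6%. H3K27ac, which marks active regulatory DNA and occupies the same lysine that H3K27me3 does, overlapped 15.5, 7.81 and 43.1%. Open chromatin by ATAC-seq, from 3 WT libraries, overlapped 56.2% ± 4.77 of shared regions (SD, n = 3), 22.4% ± 3.95 of WT-only regions and 55.7% ± 4.84 of CD-only regions. Among the 3 classes, CD-only regions had the most H3K27ac and RPB1, and WT-only regions had the least of each of these 5 lists. Over all 41008 WT H3K4me3 peaks, the share with H3K27ac was 42.9%, close to that of CD-only regions, and the shares with MLL2, serine 5 polymerase and RPB1 were 26.0, 47.4 and 39.8%. Among H3K4me3 peaks with no WT H3K27me3, 3.60% of those with H3K27ac and 4.21% of those without it had an H3K27me3 peak in CD.

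Width can contribute to such overlaps, and shared peaks were wider. Over a window of 1000 bp at each region's centre, H3K27ac overlapped 8.82% of shared and 6.07% of WT-only regions, and between 33.5 and 38.7% of CD-only regions by the 95% interval. MLL2 overlapped 37.8, 12.3 and 43.3%. The order between WT-only and CD-only regions, whose median widths were 1605 and 1592 bp, was the same in both counts.

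Polycomb proteins marked the shared class. Suz12 of conditional WT cells overlapped 54.2% of shared regions in experiment 1 and 66.6% in experiment 2, against 8.28 and 20.1% of WT-only regions and 5.84 and 13.2% of CD-only regions. Ring1b overlapped 82.8, 38.4 and 52.1% of the 3 classes in experiment 1 and 22.7, 1.51 and 0.974% in experiment 2, in which its WT list was much shorter. Sequential ChIP of conditional cells, which recovers chromatin that carries both marks, also had its highest share at shared regions. Unlike that of Suz12, its lowest share was at WT-only regions. With H3K4me3 precipitated first, its windows overlapped 55.6% of shared, 13.7% of WT-only and 19.6% of CD-only regions. With H3K27me3 first, they overlapped 65.4, 23.4 and 28.2%.

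The conditional knockout removes Mll2 itself, where the CD line carries it with a substitution, and was profiled in other cells with other libraries. List lengths differed between its WT and KO, so the longer list of each pair was cut to the number of the shorter by score, and full lists are given where they differ. At WT-only regions, Suz12 peaks went from 8.28% in WT to 4.49% in KO in experiment 1, and from 19.2 to 10.5% in experiment 2. At CD-only regions they went from 5.84 to 18.5% and from 12.2 to 26.0%. At shared regions they went from 54.2 to 56.5% and from 65.8 to 65.7%. With equal lengths, the Suz12 shares were thus lower in KO at WT-only regions and higher at CD-only regions in both experiments. With full lists, the value at WT-only regions in experiment 1 was 8.28% in WT (7.24 to 9.40) and 7.58% in KO (6.59 to 8.67), with overlapping intervals, so that fall rests on the list length. In experiment 2 it went from 20.1 to 10.5%. At CD-only regions the full lists gave 5.84 to 27.3% and 13.2 to 26.0%, and at shared regions 54.2 to 63.8% and 66.6 to 65.7%.

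Ring1b depended on the list length as well. With equal lengths it went in experiment 1 from 33.2 to 19.2% at WT-only regions and from 45.9 to 52.7% at CD-only regions. With full lists it went from 38.4 to 19.2% and from 52.1 to 52.7%. In experiment 2 with equal lengths, it was 1.51% at WT-only regions in both genotypes and went from 0.974 to 4.64% at CD-only regions. With full lists, of 2242 peaks in WT and 4640 in KO, it was higher in KO at both, at 1.51 and 5.49% and at 0.974 and 20.0%.

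With equal lengths, H3K27me3 of the conditional line was higher in KO in every class with H3K4me3. Among these classes, it rose more at CD-only than at WT-only regions. In experiment 1 it went from 50.1 to 75.6% of WT-only regions and from 38.1 to 75.1% of CD-only regions, and from 88.3 to 97.1% of shared regions. In experiment 2, which had a Drosophila spike-in, it went from 11.3 to 13.0%, from 3.60 to 8.24% and from 49.3 to 55.9% in that order. The WT-only regions, which lack H3K27me3 in CD, therefore had no lower share in KO than in WT in either experiment. In experiment 2 their intervals overlapped, 10.1 to 12.5% in WT and 11.7 to 14.4% in KO. Equal numbers of peaks do not make extent equal: in experiment 1 the median width of the full list was 1299 bp in WT and 1588 bp in KO. With full lists, the KO shares of experiment 1 were 85.5, 83.4 and 98.6% at WT-only, CD-only and shared regions.

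H3K4me3 of the conditional line was lowest in KO at WT-only regions, as CD H3K4me3 was. At WT-only regions it went from 71.5 to 26.6% in experiment 1 and from 66.6 to 22.0% in experiment 2. At CD-only regions it went from 89.7 to 82.1% and from 87.8 to 77.3%, and at shared regions from 92.9 to 69.0% and from 90.4 to 59.0%. Shared regions thus lay below CD-only regions in KO, whereas CD H3K4me3 overlapped 82.0% of the shared and 83.1% of the CD-only regions. The full WT lists gave 89.6 and 84.4% at WT-only regions.

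**Figure D3:**
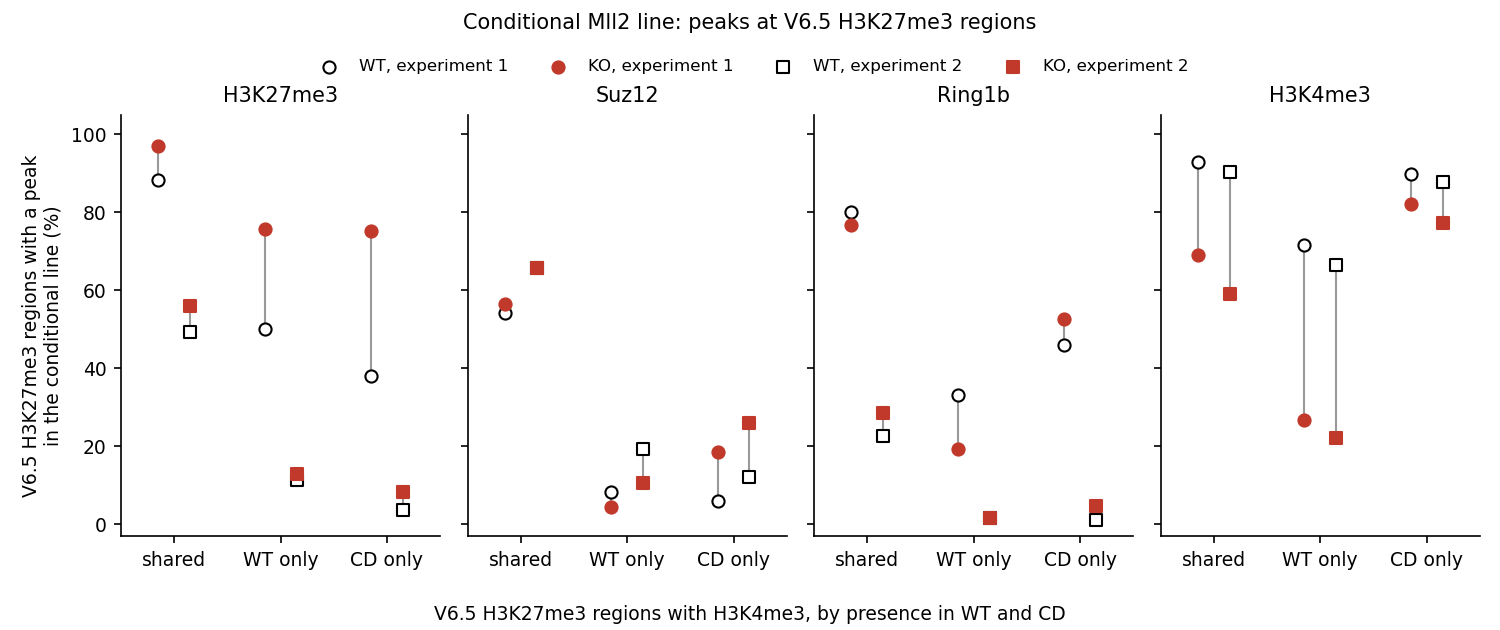
Share of V6.5 H3K27me3 regions with H3K4me3 (vertical axis, percent) that overlap a peak of the conditional line, for 7468 shared, 2586 WT-only and 1335 CD-only regions, with WT (open) and KO (filled) lists of equal length from experiment 1 (circles) and experiment 2 (squares), 1 library each. With these equal lengths Suz12 is lower in KO at WT-only regions (8.28 to 4.49%, which is 7.58% with the full KO list, and 19.2 to 10.5%) and higher at CD-only regions (5.84 to 18.5% and 12.2 to 26.0%). H3K27me3 is higher in KO in every class shown, with overlapping intervals at WT-only regions in experiment 2 (11.3 and 13.0%).

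H3K27me3 regions without H3K4me3 had little of the other features. Their conditional WT Suz12 shares stayed at or below 1.30% with equal list lengths, in all 3 classes and both experiments. H3K27me3 of conditional WT cells overlapped 44.2% of shared, 21.9% of WT-only and 11.2% of CD-only regions in experiment 1. In experiment 2 the shares were 11.1, 3.49 and 1.62%. With equal lengths, the KO shares were higher than in WT in experiment 1, at 63.1, 37.7 and 19.5%. In experiment 2 they were lower than in WT, at 7.68, 2.78 and 0.951%, with overlapping intervals at WT-only regions. The shared regions lay closest to bivalent ones: the median distance to the nearest H3K27me3 peak with H3K4me3 was 7.53 kb, against 11.8 kb for WT-only and 21.7 kb for CD-only regions. Within 5 kb of such a peak lay 43.6, 34.9 and 24.5% of the 3 classes.

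Chromosome 8 stood apart. It carried 1197 H3K27me3 peaks in WT and 2017 in CD, a ratio of CD to WT of 1.69. The other 19 chromosomes, the X included, had ratios between 0.759 on chromosome 14 and 1.04 on chromosome 9, with a median of 0.935. Peaks without H3K4me3 made the difference in number, with 646 in WT and 1498 in CD, a ratio of 2.32 against 0.740 to 1.18 elsewhere. Peaks with H3K4me3 numbered 551 and 519, a ratio of 0.942, slightly above the range of 0.787 to 0.912 elsewhere. The H3K4me3 lists showed nothing of the kind, with a ratio of 0.613 on chromosome 8 and 0.583 to 0.732 on the others.

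The surplus on chromosome 8 ran along its whole length and through all scores. In each of the 10 windows of 10 Mb with at least 20 WT peaks without H3K4me3, the ratio was between 1.46 and 3.07. In 5 bins with the same score limits in both lists, from low to high, it was 2.17, 2.05, 2.17, 3.28 and 3.53. On the other chromosomes it was 0.959, 1.00, 1.01, 1.16 and 1.36. Unknown depth limits this comparison of scores between libraries. Peaks that already existed in WT were broader in CD: over 311 pairs without H3K4me3 the median log2 ratio of widths was 0.52, with medians of 1161 bp in WT and 2030 bp in CD. On the other chromosomes it was 0.03. Paired peaks with H3K4me3 on chromosome 8 were also broader in CD, with a median log2 ratio of 0.11 over 295 pairs. Over all pairs with H3K4me3 it was -0.04. All H3K27me3 peaks with H3K4me3 on chromosome 8 covered 2.05 Mb in WT and 2.48 Mb in CD. On the other chromosomes such peaks covered 36.1 and 32.2 Mb.

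The 1072 CD-only peaks without H3K4me3 on chromosome 8 made up 17.6% of the 6100 of that class. Conditional KO H3K27me3 peaks of experiment 1 overlapped 17.9% of them and 36.9% of those on the other chromosomes. In the conditional line the KO to WT ratio of H3K27me3 peaks on chromosome 8 was 1.71 in experiment 1, where the others ranged from 1.13 to 1.75, and 1.07 in experiment 2, where they ranged from 0.960 to 1.20. Chromosome 8 lay outside the range of the other chromosomes in the CD comparison and inside it in both conditional ones. The number of copies of the chromosome in each line was not tested, and the input libraries were not analysed here.

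**Figure D4:**
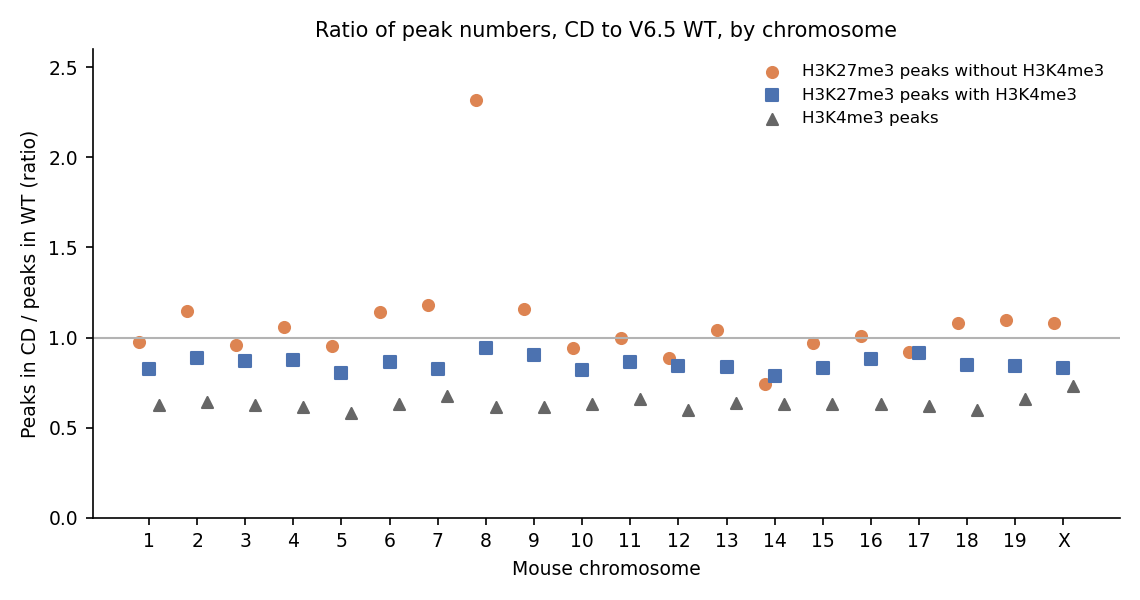
Ratio of the number of peaks in CD to that in V6.5 WT (vertical axis) for each mouse chromosome (horizontal axis), for H3K27me3 peaks without H3K4me3 (orange circles), H3K27me3 peaks with H3K4me3 (blue squares) and H3K4me3 peaks (grey triangles), from 1 library per mark and genotype. Chromosome 8 lies at 2.32 for H3K27me3 peaks without H3K4me3, where the others lie between 0.740 and 1.18, and within the range of the others for H3K4me3.

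Single regions, chosen outside chromosome 18, show how the classes looked. The highest-scoring WT peaks with H3K4me3 and no CD peak were chr10:79773195-79779622 with a score of 3194.2, chr5:144012955-144019402 with 3100.0 and chr12:111424129-111430246 with 2828.3. Each was about 6 kb wide, overlapped Suz12 of experiment 1 in conditional WT cells and carried H3K27me3 in all 4 conditional lists, WT and KO. The nearest CD peak lay 4.57, 34.3 and 37.7 kb away. CD H3K4me3 was present at the first and absent at the other two.

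The highest-scoring CD peaks with H3K4me3 and no WT peak were chr2:38190250-38218301, which spans 28052 bp with a score of 3100.0, and 2 neighbours on chromosome 8, chr8:59786895-59810110 and chr8:59810946-59820567. All 3 overlapped Suz12 of experiment 1 in conditional WT cells and H3K27me3 in all 4 conditional lists. The WT list had a peak 158 bp from the first, and the nearest WT peaks to the others lay 26.9 and 16.5 kb away. A domain of this size that is missing from 1 list but present in 5 others is a single-library difference, and its cause was not tested.

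Without H3K4me3, the highest-scoring WT peaks with no CD peak included 2 near each other, chr7:150597400-150603287 and chr7:150606886-150614694, with scores of 689.1 and 984.0. The nearest CD peak lay 255 bp from the first and 9.39 kb from the second. Both carried H3K27me3 in the 2 conditional lists of experiment 1 and in neither list of experiment 2. The widest WT peak without H3K4me3, chr8:119651301-119669630, spanned 18330 bp, and CD peaks covered 99.0% of it. The widest with H3K4me3, chr11:77732564-77777477, spanned 44914 bp at a score of 53.5, and CD peaks covered 99.9% of it.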

How the data were processed

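The authors deposited 1 peak list per ChIP or ATAC library, with a start, an end and a score per peak. The peak names carry the prefix of MACS, and the score, between 50 and 3233.06 in the H3K27me3 lists, is the authors' own. The version, settings and control library of MACS were not given in the sources used here. Reads were aligned with Bowtie to mm9, per the submitters' processing notes, which for MLL2 and serine 5 polymerase also name hg19. Re-ChIP files list 100 bp windows with a deposited score above 1, whose scale is not stated.

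Peaks were compared by overlap of at least 1 bp, in Python 3.11.15 with numpy 2.4.6, pandas 2.3.3 and scipy 1.17.1. The overlap code was checked against a direct count and bedtools 2.31.1 on simulated regions. The 5 bins by score or by width hold equal numbers of each list. The ratios by score on chromosome 8 are the exception. There the same score limits, 70.1, 102, 180 and 514, divided both lists. Named regions are the 3 highest-scoring unshared peaks of each list and class and the 3 widest WT peaks of each class, of which some are printed. Peaks on chromosome 18 were left out of this choice. The regions, classes and comparisons were chosen with earlier results of these data known. Apart from these shared limits for chromosome 8, scores were not used as levels to compare libraries, since depth is unknown. Hi-C, expression tables, input, IgG and total H3 libraries were not used here.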

Additional observations from a re-analysis of the deposited data

How the results depend on the processing

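The 4 shares of H3K27me3 peaks that overlap a peak of the other genotype were recomputed under 7 alternatives and, chosen after seeing the data, without chromosome 8. The share of WT peaks with H3K4me3 (74.3%) became 75.6% in the 10214 highest-scoring peaks of each list, 68.9% when a fraction of 0.5 of the peak had to be covered, and 75.2% with H3K4me3 of conditional WT cells from experiment 2. The share of WT peaks without H3K4me3 (53.0%) became 60.1% in the highest-scoring peaks, 45.3% with the 0.5 overlap, 48.1% with peaks within 1000 bp joined, and 51.3% without chromosome 8. The share of CD peaks with H3K4me3 (84.5%) became 82.1, 80.8 and 85.6% with the highest-scoring peaks, the 0.5 overlap and joined peaks. The share of CD peaks without H3K4me3 (48.4%) became 39.9, 42.7 and 51.3% with the 0.5 overlap, joined peaks and no chromosome 8. The causes of these moves were not tested. Equal numbers of peaks (20428) gave 74.6, 53.6, 84.3 and 48.0%. In every setting the share was higher with H3K4me3 than without it, by 15.6 to 26.8 points in WT and 33.5 to 42.9 points in CD. None of these settings compared peaks of equal score or width. Within WT score bins 3, 4 and 5 the order was the opposite, at 57.5, 75.8 and 95.8% with H3K4me3 and 62.6, 85.5 and 97.4% without it. It was also the opposite in the first 4 of 5 WT width bins. The shares there were 30.4, 41.9, 58.1 and 75.8% with H3K4me3 and 34.7, 50.3, 62.8 and 81.4% without it. In CD peaks the share was higher with H3K4me3 in every width bin. Without H3K4me3, the CD share minus the WT share was -4.59 points, and -0.0707 points without chromosome 8. No paired analysis was possible because each mark and genotype in V6.5 cells had 1 library. Unknown depth and the score floor of 50 limit all counts of missing peaks.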

Other observations

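Chromosome 14 lay at the other end of the chromosome ratios. Its number of H3K27me3 peaks in CD was 0.759 of that in WT, with 0.787 for peaks with H3K4me3 and 0.740 for peaks without it, each the lowest of the 19 chromosomes other than chromosome 8. Of its WT peaks, 50.5% overlapped a CD peak, also the lowest, against a median of 62.7%. On chromosome 8 the share was 78.8%, above the highest of the others, 68.5% on the X chromosome.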
